A study of Mus musculus with 4 samples.

Results

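Genes of the amino acid response around the transcription factor ATF4 were followed in *Zfp296* KO mouse embryonic stem cells (ESCs). They include *Atf4* itself and kinases that act before it, and their control by ATF4 was not measured. The set holds 40 genes chosen by name for their roles, with earlier results of these data known. These are 14 stress regulators, 7 enzymes of serine, glycine and one-carbon metabolism, 10 other amino acid enzymes and response genes, and 9 amino acid transporters. All 40 were found among the 48526 gene rows of the count tables, and 39 had enough counts to be tested. *Slc6a9*, a glycine transporter, was not tested, with 2 and 5 counts in the WT libraries against 19 and 12 in the KO2 libraries.

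The study asked how loss of ZFP296, a zinc finger protein that binds the NuRD chromatin remodeling complex, alters gene expression in ESCs. RNA-seq was available for 2 replicates of WT R1 ESCs and 2 replicates of *Zfp296* CRISPR KO clone 2 in the same R1 line (KO2). Both groups were grown undifferentiated on gelatine in serum with LIF, the MEK inhibitor PD0325901, the GSK3 inhibitor CHIR99021 and added non-essential amino acids. The KO2 replicates come from 1 clone, made with a guide RNA against the first exon, so loss of ZFP296 and the history of this clone cannot be told apart.

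Cells short of an amino acid, or under other stresses, phosphorylate the translation factor eIF2, which lowers protein synthesis but raises translation of the *Atf4* mRNA. ATF4 pairs with C/EBP family partners and binds C/EBP-ATF response elements near genes that make, import and charge amino acids. Prolonged signalling also induces the proapoptotic factor CHOP, encoded by *Ddit3*, and feedback genes such as *Trib3*. RNA-seq reads the *Atf4* transcript and not this translational step.

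The WT libraries held 2829914 and 4334499 gene counts and the KO2 libraries 7470907 and 7437294, so both KO2 libraries were deeper. The *Zfp296* transcript was higher in KO2, with 31 counts in each WT library against 416 and 282 (log2 fold change 2.31, SE 0.29, adjusted p = 4.64e-05). An edit in the first exon need not lower the transcript, so these counts do not check the KO, and WT and KO2 below mean the libraries labelled so. RNA of Y-linked genes was nearly absent from WT, although R1 is a male line: *Ddx3y* had 0 and 1 counts in WT against 1979 and 2197 in KO2, *Eif2s3y* 0 and 0 against 2014 and 2119, *Uty* 0 and 0 against 723 and 799, and *Kdm5d* 0 and 0 against 16 and 11. The libraries thus differ in more than *Zfp296*, and the part of this difference in the results below was not tested. The summed level of 12 pluripotency markers was 7063 and 6933 CPM (counts scaled to library size) in WT and 7164 and 6831 CPM in KO2, with *Sox2* and *Lin28a* lower in KO2. Of the other markers, 8 of primitive endoderm summed to 181 to 207 CPM in WT and 188 to 228 in KO2, mostly *Sparc*, with *Afp* at 0. The 8 of trophoblast summed to 95.4 to 97.4 and 134 to 153 CPM, mostly *Tfap2c*, which was higher in KO2, and those of neural cells to 142 to 146 and 185 to 192 CPM, mostly *Nes* and *Tubb3*, with *Olig2* at 0. The 9 of fibroblasts summed to 5.59 to 15.4 and 8.5 to 10.3 CPM, with *Postn*, *Dcn* and *Lum* at 0, and 8 of primed epiblast and mesoderm to 57.0 to 73.7 and 68.3 to 73.4 CPM, mostly *Otx2*, with *Fgf5*, *T* and *Mesp1* at 0. Their part in the results was not tested.

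Response element letters were searched in the promoters of the members, from 250 bases before to 50 bases after the RefSeq start (GRCm38.p6). The motif TGATGNAA was present on either strand in 10 of the 34 members with a promoter (29.4%), and in 4.51% of all 27025 genes with one. The narrower TGATGCAA, contained in the first motif, was present in 7 of 34 members (20.6%) and in 1.03% of genes. The members were chosen by name for their roles in this response, so these shares describe the list and are no independent test. *Eif4ebp1*, *Aldh1l2*, *Cth*, *Slc7a5*, *Slc7a3* and *Slc1a5* had no promoter in the table. The windows below show a match, in capitals, in the 3 members with a match that were lower in KO2 (*Asns*, *Vldlr* and *Slc1a4*) and in 3 whose change did not pass the test (*Slc7a11*, *Chac1* and *Trib3*). Each was placed on NCBIM37 (mm9) by a unique match and reads 5′ to 3′ on the strand given.
Asns: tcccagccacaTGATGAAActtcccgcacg
Vldlr: gctaggagcgcTGATGCAActattgctgct
Slc1a4: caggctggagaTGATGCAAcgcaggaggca
Slc7a11: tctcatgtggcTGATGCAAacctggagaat
Chac1: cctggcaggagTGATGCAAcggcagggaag
Trib3: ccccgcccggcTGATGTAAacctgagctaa

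The *Asns* window lies at chr6:7643214-7643243 on the minus strand, in the noncoding part of an annotated exon. The *Vldlr* window is at chr19:27291299-27291328 (minus strand), also in a noncoding exon part, and the *Slc1a4* window at chr11:20232702-20232731 (plus strand), across the edge of an exon. *Slc7a11* has its window at chr3:50247583-50247612 (minus strand) and *Chac1* at chr2:119176774-119176803 (minus strand), both upstream of the annotated gene, and *Slc7a11* has another match at chr3:50247564-50247593 (plus strand), not printed. The *Trib3* window is at chr2:152169764-152169793 (plus strand), across an exon edge. A match was held by members that were lower and by members that were not: 3 of the 10 with a match were significantly lower in KO2, as were 8 of the 24 without. The letters describe the window and do not show binding.

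Across the 4 libraries, the response genes leaned towards lower levels in KO2. They were chosen with earlier results of these data known, so the shares below describe this set and are no independent test. In the edgeR fit over all 12883 tested genes, 14 of the 39 tested members were significantly lower in KO2 and 0 were higher, against 3.04% of all tested genes called lower, 2.6% higher and 5.64% in either direction. At an unadjusted p under 0.05, 22 members were lower and 0 higher (9.6% of tested genes were lower). DESeq2 called 13 members among 454 genes called in all, of 25397 genes with a p-value. Both KO2 libraries lay below both WT libraries in 27 members, against 23.4% of tested genes. The median log2 fold change was -0.45 over the members and 0.01 over all tested genes. A negative log2 fold change was found in 34 of the 39 tested members, against 48.6% of all tested genes. The summed level of the 40 genes was 4911 and 4978 CPM in WT and 3521 and 3332 CPM in KO2. The called members were enzymes and transporters, the lipoprotein receptor gene *Vldlr*, and *Atf4* as the only stress regulator. Scaled to the ERCC spike-ins, 2 members stayed called (*Slc7a3* and *Vldlr*), among 163 calls over all 12883 tested genes. The median log2 fold change was then -0.38 over the members and 0.09 over all tested genes. With no filter on low counts only *Asns* stayed called, among 61 calls over 25397 genes. All 14 kept a lower level in KO2 in each of the 12 alternative settings. Without WT replicate 1 or 2, 33 and 32 of 39 members had a negative log2 fold change, and without KO2 replicate 1 or 2, 33 and 30 of 38. Some of the 14 calls were lost without either WT library or without KO2 replicate 2, as given below. In bulk RNA, a change per cell and a change in the mix of cells cannot be told apart.

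**Figure D1:**
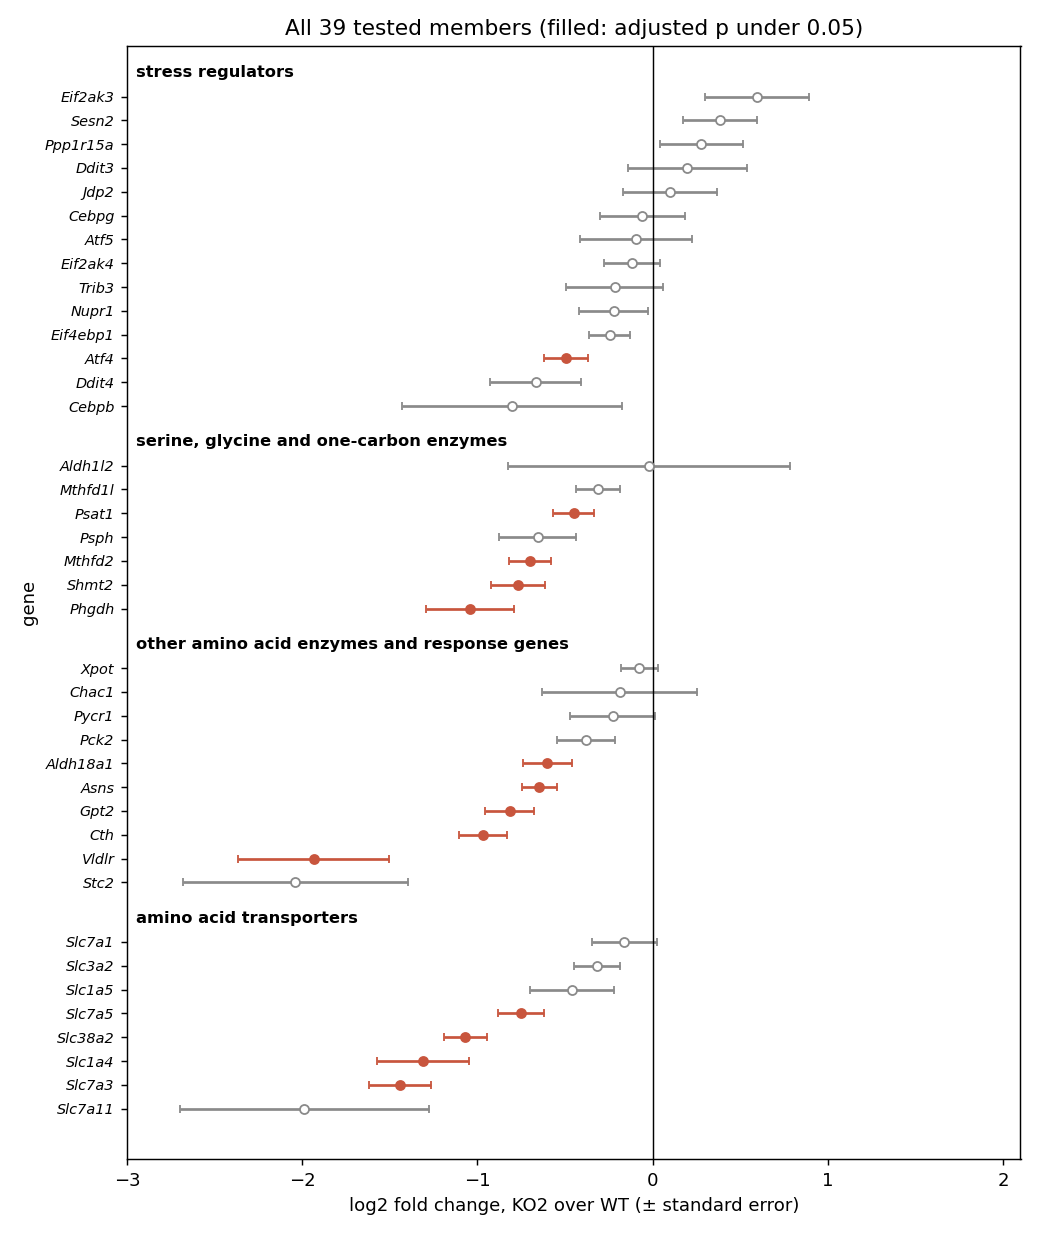
Log2 fold change (KO2 over WT) of the 39 tested members by subgroup, with bars of 1 standard error from edgeR's quasi-likelihood test (2 libraries per group). Filled markers passed the adjusted p threshold of 0.05, and all 14 of them lie left of 0.

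**Figure D2:**
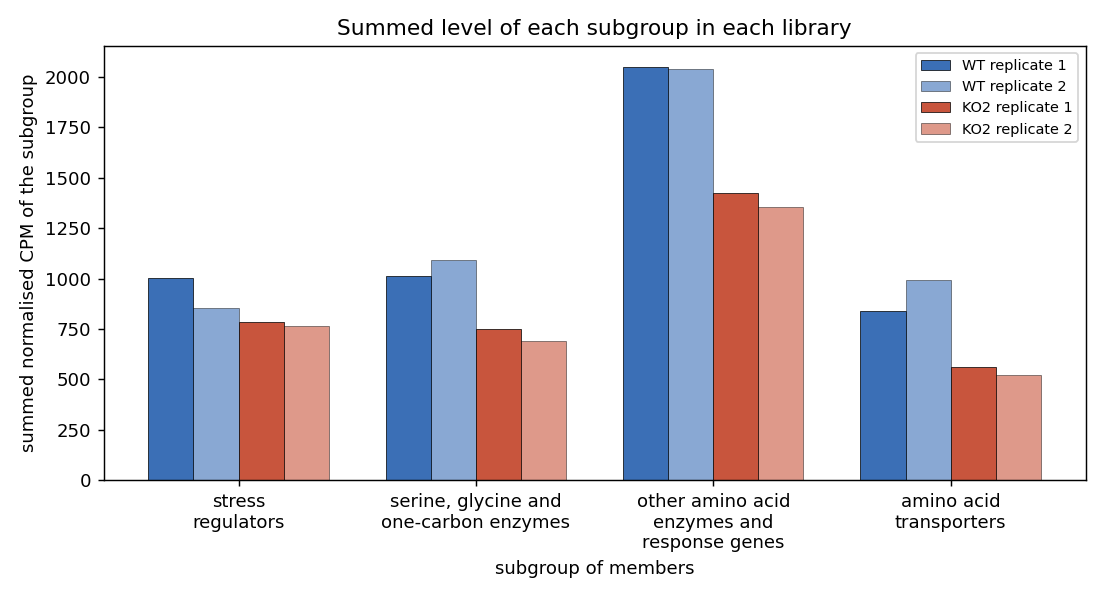
Summed level in CPM of each subgroup in each of the 4 libraries. The transporters sum to 840 and 991 CPM in WT and to 561 and 520 CPM in KO2, and the stress regulators to 1004 and 854 against 783 and 763 CPM.

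*Atf4* itself was lower in KO2. The gene lies at chr15:80085614-80087970 and gave 435.7 and 331.5 CPM in WT and 272.6 and 270.2 CPM in KO2. The WT libraries differed from each other by more than the KO2 libraries did, yet the groups did not overlap. The WT mean was 383.6 ± 73.6 CPM and the KO2 mean 271.4 ± 1.76 CPM (SD, n = 2), and the level fell by 29.1% (log2 fold change -0.50, SE 0.12, adjusted p = 0.0238). Without WT replicate 1, the higher library, the call was lost (adjusted p = 0.264).

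The other 13 stress regulators did not pass the test, and their median with *Atf4* was -0.11. *Ddit3*, which encodes CHOP, gave 11.9 and 9.92 CPM in WT and 12.8 and 11.9 CPM in KO2 (log2 fold change 0.20, SE 0.34, adjusted p = 0.82). *Trib3*, a pseudokinase that restrains ATF4, gave 18.6 and 18.4 CPM in WT and 17.0 and 14.8 CPM in KO2 (-0.22, SE 0.28, adjusted p = 0.736). The ranges of *Ddit3* overlapped, and the KO2 levels of *Trib3* were slightly below WT. *Atf5*, a close relative of ATF4, gave 13.8, 14.7, 15.6 and 11.1 CPM in the order WT replicates 1 and 2 and KO2 replicates 1 and 2 (-0.09, SE 0.32, adjusted p = 0.912), so the groups overlapped.

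The eIF2 kinases of the set also did not pass. *Eif2ak4*, which encodes the amino acid sensor GCN2, gave 69.3 and 60.7 CPM in WT and 56.2 and 63.4 CPM in KO2 (log2 fold change -0.12, SE 0.16, adjusted p = 0.763). *Eif2ak3*, which encodes the ER stress kinase PERK, gave 10.4 and 17.0 CPM in WT and 19.7 and 23.4 CPM in KO2 (0.60, SE 0.29, adjusted p = 0.277). The *Eif2ak3* levels of KO2 were above those of WT, as were those of *Sesn2* and *Ppp1r15a*. *Ddit4*, an inhibitor of mTORC1, and *Eif4ebp1*, an inhibitor of cap-dependent translation, had an unadjusted p under 0.05 (log2 fold changes -0.67 and -0.24, adjusted p = 0.158 and 0.254). The remaining regulators, *Cebpb*, *Cebpg*, *Nupr1*, *Jdp2*, *Sesn2* and *Ppp1r15a*, had log2 fold changes from -0.80 to 0.38, and *Cebpg* went from -0.06 to 0.05 with ERCC scaling. *Ddit3*, *Atf5*, *Cebpb* and *Ppp1r15a* share exonic sequence with genes on the opposite strand (such as *Mars* for *Ddit3*), and whether counting used the strand is not given. Reads of the shared stretches may have been left out as ambiguous (2.08% to 4.06% of counts per library), or reads of the partners included.

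In the serine pathway, enzymes of synthesis and of the mitochondrial folate branch were lower in KO2. Of 7 enzymes, 4 fell, against 3.04% of all tested genes called lower. All 7 had a negative log2 fold change (48.6% of all tested genes did), with a median of -0.66, although *Aldh1l2* was at 0.03 with ERCC scaling. *Phgdh*, the first enzyme of serine synthesis, gave 26.5 and 43.7 CPM in WT and 17.4 and 17.5 CPM in KO2. *Psat1*, the next enzyme, gave 355.9 and 421.8 CPM in WT and 297.5 and 272.0 CPM in KO2. Both enzymes were lower in each KO2 library than in each WT library, with the WT replicates apart. *Phgdh* fell by 51.4% (log2 fold change -1.04, SE 0.25, adjusted p = 0.0179) and *Psat1* by 26.9% (-0.45, SE 0.12, adjusted p = 0.0261).

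*Shmt2*, which splits serine to glycine in mitochondria, gave 88.0 and 110.3 CPM in WT and 61.5 and 55.3 CPM in KO2 (log2 fold change -0.77, SE 0.15, adjusted p = 0.00499). *Mthfd2*, which oxidizes the resulting folate carbon unit, gave 333.5 and 279.5 CPM in WT and 184.4 and 192.4 CPM in KO2 (-0.70, SE 0.12, adjusted p = 0.00132). The groups were apart in both genes. *Psph*, the last enzyme of serine synthesis, and *Mthfd1l*, another mitochondrial folate enzyme, had an unadjusted p under 0.05 (log2 fold changes -0.66 and -0.31, adjusted p = 0.0948 and 0.178). *Aldh1l2*, a folate dehydrogenase, had 2 to 14 counts per library and a log2 fold change of -0.02 (SE 0.81). Leaving out WT replicate 2 ended the calls of *Phgdh* (log2 fold change -0.60, adjusted p = 0.286), *Psat1* (0.211) and *Shmt2* (0.0816), leaving out KO2 replicate 2 ended that of *Psat1* (0.095), and *Phgdh* had an adjusted p of 0.0616 in DESeq2 and 0.0594 after thinning to the smallest library. *Shmt2* overlaps *Ndufa4l2* on the opposite strand.

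**Figure D3:**
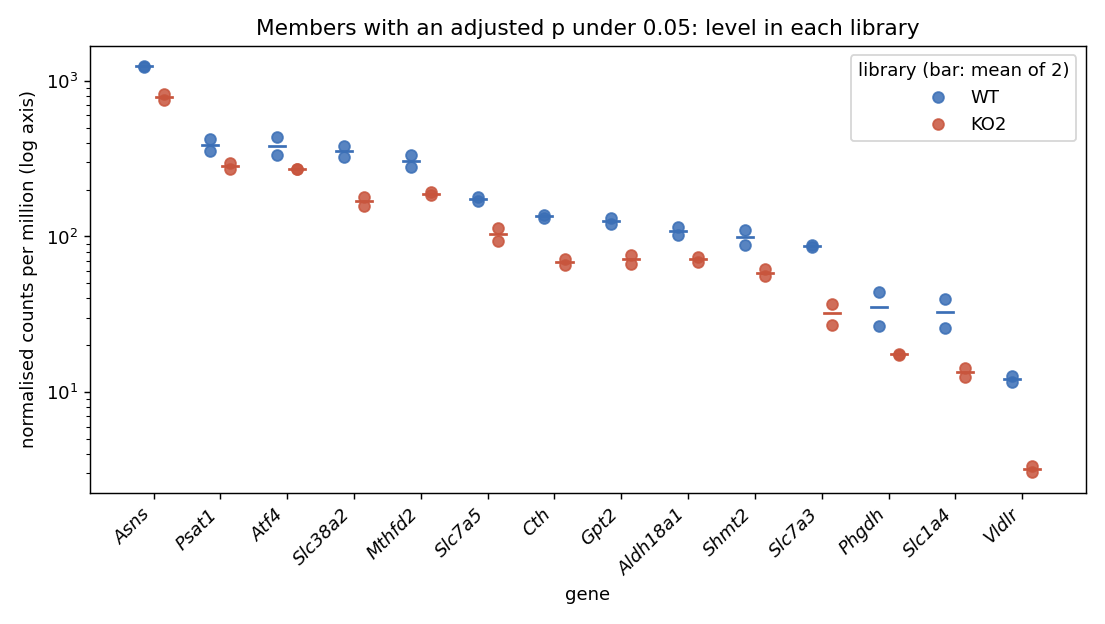
Level in CPM of the 14 significant members in each library, on a log axis, with WT and KO2 libraries marked. In each gene both KO2 points lie below both WT points, from *Asns* (1241 and 1232 against 827.7 and 751.9 CPM) to *Vldlr* (11.6 and 12.8 against 3.04 and 3.34 CPM).

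Among the other enzymes, *Asns* had the highest level per length of all members. *Asns*, which makes asparagine from aspartate and glutamine, lies at chr6:7625169-7643254 on the minus strand. It gave 1241 and 1232 CPM in WT and 827.7 and 751.9 CPM in KO2, with close replicates. The WT mean was 1237 ± 6.18 CPM and the KO2 mean 789.8 ± 53.6 CPM (SD, n = 2), and the level fell by 36.1% (log2 fold change -0.65, SE 0.10, adjusted p = 0.000529). As a level per kilobase of exon, this was 452 RPKM in WT and 289 in KO2, against 222 and 157 RPKM for *Atf4* and 6.38 and 7.21 RPKM for *Ddit3*.

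*Cth*, which releases cysteine from cystathionine, gave 137.9 and 131.9 CPM in WT and 65.9 and 71.9 CPM in KO2 (log2 fold change -0.97, SE 0.14, adjusted p = 0.000187). *Gpt2*, the mitochondrial alanine transaminase, gave 119.6 and 130.7 CPM in WT and 66.4 and 76.1 CPM in KO2 (-0.82, SE 0.14, adjusted p = 0.00142). *Aldh18a1*, which starts proline synthesis, gave 114.4 and 102.3 CPM in WT and 74.3 and 68.2 CPM in KO2 (-0.60, SE 0.14, adjusted p = 0.016). These 3 enzymes act on different amino acids and were each lower in both KO2 libraries. *Vldlr*, a lipoprotein receptor induced in stress, had 31 and 54 counts in WT against 24 and 25 in the deeper KO2 libraries, which is 11.6 and 12.8 against 3.04 and 3.34 CPM (-1.93, SE 0.43, adjusted p = 0.0111). The *Aldh18a1* call was lost without WT replicate 1 (adjusted p = 0.119) and KO2 replicate 2 (0.0759), and the *Vldlr* call without WT replicate 1 (0.0569) and WT replicate 2 (0.0874).

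*Pck2*, the mitochondrial PEP carboxykinase, and *Stc2*, a secreted glycoprotein, had an unadjusted p under 0.05 (log2 fold changes -0.38 and -2.04, adjusted p = 0.205 and 0.0734). The KO2 libraries of *Stc2* differed widely, with 27 and 3 counts against 29 and 26 in WT. *Chac1*, which degrades glutathione, gave 7.08 and 10.6 CPM in WT and 10.9 and 5.08 CPM in KO2 (log2 fold change -0.19, SE 0.44, adjusted p = 0.873), so the groups overlapped. *Pycr1* and *Xpot*, for proline synthesis and tRNA export, had log2 fold changes of -0.23 and -0.08, the latter 0.02 with ERCC scaling.

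The transporters had the most negative median of the 4 subgroups. All 8 tested had a negative log2 fold change (48.6% of all tested genes did), and the median was -0.91. Of these 8, 4 fell, against 3.04% of all tested genes called lower. *Slc38a2*, the sodium-coupled carrier SNAT2 of small neutral amino acids, gave 323.1 and 384.0 CPM in WT and 157.4 and 180.1 CPM in KO2 (log2 fold change -1.07, SE 0.12, adjusted p = 2.11e-05). *Slc7a3*, a carrier of arginine and lysine encoded on the X chromosome, gave 86.1 and 88.1 CPM in WT and 36.9 and 27.1 CPM in KO2 (-1.44, SE 0.17, adjusted p = 4.44e-05). Both genes were clearly separated between the groups. *Slc7a5*, the large neutral amino acid exchanger LAT1, gave 169.9 and 178.9 CPM in WT and 114.1 and 93.0 CPM in KO2 (-0.75, SE 0.13, adjusted p = 0.00186). *Slc1a4*, the carrier ASCT1 of alanine, serine and cysteine, gave 25.7 and 39.5 CPM in WT and 12.6 and 14.3 CPM in KO2 (-1.31, SE 0.26, adjusted p = 0.00489), and its call was lost without WT replicate 2 (adjusted p = 0.127).

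*Slc3a2*, the heavy chain that pairs with LAT1 and xCT, gave 126.3 and 145.3 CPM in WT and 113.7 and 104.9 CPM in KO2 (log2 fold change -0.32, SE 0.13, adjusted p = 0.188). *Slc7a11*, which encodes the cystine carrier xCT, had 12 and 17 WT counts against 4 and 12 in the KO2 libraries, which is 4.47 and 4.02 against 0.507 and 1.60 CPM (-1.99, SE 0.71, adjusted p = 0.12). Both had an unadjusted p under 0.05 and KO2 levels below WT. *Slc7a1*, another carrier of cationic amino acids, and *Slc1a5*, the glutamine carrier ASCT2, had log2 fold changes of -0.16 and -0.46. The untested *Slc6a9*, which overlaps *B4galt2* and other genes on the opposite strand, was at 0.745 and 1.18 CPM in WT and 2.41 and 1.60 CPM in KO2.

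Other genes of the pathway, listed by role, moved less uniformly. ATF4 targets and partners outside the member list leaned towards higher levels in KO2, with 13 log2 fold changes positive and 3 negative. Over all tested genes, 48.6% were negative. Of the other amino acid transporters, 7 were positive and 5 negative. At an unadjusted p under 0.05, 5 of these targets and partners were higher and 2 lower, and 4 of these transporters were higher and 0 lower. Over all 12883 tested genes, 2499 had such a p in either direction, and 9.6% were lower with it. Among 20 cytosolic aminoacyl-tRNA synthetases, which charge tRNAs, 5 were lower in KO2 and 0 higher, with a median log2 fold change of -0.15. Of all tested genes, 3.04% were called lower. *Cars*, for cysteine, gave the smallest adjusted p (log2 fold change -0.87, SE 0.12, adjusted p = 0.000141), followed by *Nars* for asparagine (-0.56, adjusted p = 0.00319), *Lars* for leucine (-0.45, adjusted p = 0.0109) and *Sars* for serine (-0.40, adjusted p = 0.0463). The count of synthetases was 1 without WT replicate 1, 2 without WT replicate 2, and 3 without KO2 replicate 2, and *Cars* was called in each of these.

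Among 13 other eIF2 kinases, eIF2 subunits and eIF2B genes, 1 was lower, *Eif2s2* for the beta subunit of eIF2 (-0.49, SE 0.10, adjusted p = 0.0059), and it was not called without WT replicate 1 (adjusted p = 0.102) or WT replicate 2 (0.0696). In 16 tested ATF4 targets and partners outside the member list, 1 was lower, the oxidoreductase *Ero1l* (-0.61, adjusted p = 0.00795), and 2 were higher, the death receptor *Tnfrsf10b* (1.37, adjusted p = 0.0322) and the autophagy receptor *Sqstm1* (0.48, adjusted p = 0.0346), with a median of 0.29. The count of this list was 1 without WT replicate 1, 1 without WT replicate 2 and 0 without KO2 replicate 1. These counts, like those of the next pair of lists, are of 1 to 3 genes and are to be read against the 5.64% of all tested genes called in either direction. Of 17 other enzymes of proline, glutamate, aspartate and cysteine, 1 was lower, the branched-chain transaminase *Bcat1* (-0.56, adjusted p = 0.00168). Of 12 tested other amino acid transporters, 1 was higher, *Slc38a4* (0.48, adjusted p = 0.0107), and it was not called without WT replicate 1 (0.0942) or WT replicate 2 (0.0566).

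No gene passed in 2 further lists. Of 14 tested other serine, glycine and folate enzymes, 0 passed in edgeR and DESeq2 called 0, with a median log2 fold change of 0.0022. In this list 2 genes had an unadjusted p under 0.05, both higher in KO2, against 2499 of all 12883 tested genes in either direction. Of 22 ER chaperones and genes of the IRE1 and ATF6 arms, which respond to unfolded protein, 0 passed in edgeR and DESeq2 called 0. Their median was -0.0040, and 1 had an unadjusted p under 0.05, lower in KO2. The members' median of -0.45 was lower than that of each of these 7 lists. Differences between lists were not tested.

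**Figure D4:**
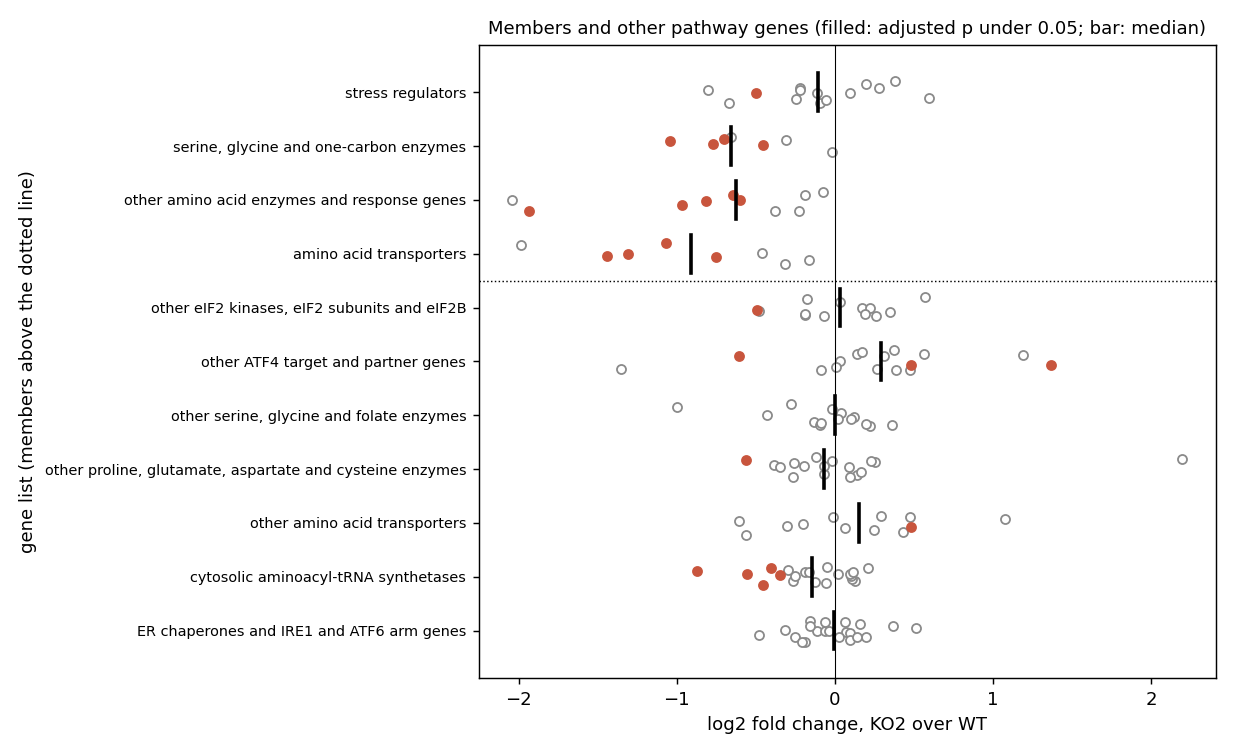
Log2 fold change (KO2 over WT) of each tested gene in the 4 member subgroups and the 7 other pathway lists, with the median of each marked. The medians of 3 member subgroups lie between -0.62 and -0.91, and those of the other lists between -0.15 and 0.29. The median of the stress regulators, -0.11, lies within the range of the other lists.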

How the data were processed

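RNA was isolated in duplicate, depleted of ribosomal RNA and made into strand-specific libraries. The authors mapped reads to mm9 with hisat2 and deposited raw HTSeq counts per gene for each of the 4 libraries. Versions, annotation and counting options are not given in the sources used here. HTSeq's summary rows, 52.9% to 58.8% of all counts, and 92 ERCC spike-ins were left out of library sizes. A count of 3 was 0.38 to 1.12 CPM. Counting error sets the limit for genes with few counts.

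The members, subgroups and other lists were chosen with earlier results of these data known. Counts were filtered with filterByExpr (minimum count 10, total 15), normalized by TMM and tested with the quasi-likelihood method of edgeR 4.0.16 (R 4.3.3), with condition as the only term and Benjamini-Hochberg adjustment over all tested genes at 0.05. CPM uses TMM-scaled library sizes, SE is the log2 fold change divided by the square root of F, and RPKM divides CPM by exon length. The fits were tested on simulated data. Values per library are given for called members and for regulators, enzymes and transporters fixed by name, the others by range, those with an unadjusted p under 0.05 by name, and at most 4 called genes per other list. Alternatives were RLE or ERCC scaling, other filters, DESeq2 1.42.0, the older quasi-likelihood method, a replicate block, leaving out each library and thinning to the smallest library. Replicates differed by more than sampling noise. They are labelled biological replicates, but separate cultures are not stated, so p-values measure the spread between these samples, which may be technical.

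Coordinates are NCBIM37 with GENCODE M1. Promoters are from RefSeq. A gene of the neural marker list is not reported here.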

Additional observations from a re-analysis of the deposited data

How the results depend on the processing

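Each of the 14 called members stayed lower in KO2 in all 12 alternatives. For 28 members (the called ones, those with an unadjusted p under 0.05 and the others fixed by name), 333 gene and alternative combinations were followed, of which 289 kept their direction and side of the threshold, 37 lost and 4 gained significance, and 3 changed sign, and these were *Atf5* without KO2 replicate 2 (log2 fold change 0.12, range -0.36 to 0.12 when a library was left out) and *Chac1* without WT replicate 2 (0.18) and without KO2 replicate 2 (0.24, range -0.85 to 0.24). Among the other members, *Cebpg*, *Xpot* and *Aldh1l2* turned positive with ERCC scaling (0.05, 0.02 and 0.03), leaving 31 of 39 negative against 34. All tested genes gave 726 calls, 163 with ERCC scaling, 61 with no filter, 454 with DESeq2 and 270 to 691 when a library was left out. With ERCC scaling, 2 members were called, both lower: 0 stress regulators, 0 serine and one-carbon enzymes, 1 other enzyme or response gene and 1 transporter. No gene was then called in the lists of eIF2 genes (0), other ATF4 targets (0), proline and related enzymes (0), other transporters (0) and synthetases (0). With no filter, 1 member was called, lower, with 0, 0, 1 and 0 in these subgroups, and 0, 0, 0, 0 and 1 in these lists. Thinning gave 3 synthetases. Leaving out each library gave 9 to 16 members, all lower, with 0 to 1, 1 to 5, 3 to 6 and 3 to 4 in the subgroups and 0 to 1, 0 to 3, 1 to 2, 0 to 1 and 1 to 4 in the lists. The cause of these changes was not tested. Where a group was left with 1 library, it was assumed to vary like the other group. Spike-in reads numbered from 2515 to 7024 per library, or 0.0695% to 0.0939% of gene and spike-in counts. This share was 0.0888% in WT replicate 1 against 0.0731% in WT replicate 2, and 0.0939% against 0.0695% in the KO2 replicates. The effect of this difference between replicates on the calls with ERCC scaling was not tested.

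The replicate numbers are shared between WT and KO2, but the differences between replicates did not correlate (r = -0.025 over tested genes). With 2 libraries per group, this value cannot show whether libraries of the same number shared any processing. With a replicate block, 946 genes and 16 members were called, the 14 and *Psph* and *Stc2*.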
